A study of Homo sapiens with 16 samples.

Results

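The genes described here make, recycle, spend and break down glutathione, or import the cystine it is built from. The set holds 10 genes of the 60662 in the deposited tables, chosen by symbol: GCLC, GCLM, GSS, GSR, SLC7A11, CHAC1, CHAC2, GLRX, GLRX2 and GSTP1. RNA-seq was done on Jurkat E6-1 WT cells, a human T cell line of long standing that the labels class as lymphoma. The peroxide group has 8 libraries from cells moved to phosphate-buffered saline with 10 µM hydrogen peroxide for 4 h, a dose the labels state per 1000000 cells. The control group has 8 libraries from untreated cells at 0 h. Time, the move to saline and peroxide differ together between the groups and cannot be told apart. The names of the deposited tables put 4 libraries of each group in each of 2 batches, and no source used here says what a batch stands for. The labels call the libraries biological replicates of 1 cell line, so p-values measure the spread between these samples.

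Glutathione is a tripeptide of glutamate, cysteine and glycine, and it is the main soluble thiol of animal cells. Glutamate-cysteine ligase, built from the catalytic subunit GCLC and the modifier subunit GCLM, joins glutamate to cysteine in the rate-limiting step, and GSS, glutathione synthetase, adds glycine. Cysteine enters largely as cystine through the exchanger formed by SLC7A11 and SLC3A2. Oxidised glutathione is reduced again by GSR with NADPH, glutaredoxins use glutathione to repair oxidised protein thiols, transferases such as GSTP1 couple it to reactive compounds, and CHAC1 and CHAC2 cleave it inside the cell. Several of these genes are textbook targets of NRF2, which binds the antioxidant response element, or of ATF4, which with a C/EBP partner binds the C/EBP-ATF response element.

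Peroxide libraries held 7378435 to 10090165 reads in genes and controls 5556553 to 15720881. Mitochondrial genes held a share of 1.41% to 2.30% in peroxide libraries and 2.7% to 3.39% in controls, of reads in genes. All 10 T cell markers were above 1 CPM (counts per 1000000 reads, scaled with edgeR's TMM factors, the unit of every level given here) in both groups. Their summed level was 2813 to 3645 CPM in peroxide libraries and 2712 to 3680 CPM in controls. The B cell marker MS4A1 and the epithelial marker EPCAM were at or near 0 in both groups, and of 5 B cell markers CD79A and CR2 exceeded 1 CPM. The 5 monocyte markers summed to 4.02 to 13.3 CPM in peroxide libraries and 0.125 to 0.943 CPM in controls, through CD14 and ITGAM, while LYZ stayed under 1 CPM in both groups. The part of these markers and of the mitochondrial share in the differences given here was not tested. In bulk RNA, fewer cells of a type and less RNA per cell cannot be told apart. Peroxide 1, peroxide 2 and control 2 stood farthest from the mean of their group and batch, with a root mean square log2 deviation of 0.218, 0.215 and 0.199 over 11093 genes, against 0.120 to 0.180 in the other libraries.

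Promoter letters are shown for the 3 members whose windows hold one of the motifs searched, because CHAC1 and GCLM were called different between the groups and GSTP1 was not over both batches. RefSeq windows of 250 bases before the transcription start (GRCh38.p14) were available for 7 of the 10 members and were searched on both strands for TGACNNNGC (antioxidant response element), TTNCNTCA (C/EBP-ATF response element) and TGANTCA (AP-1 element, added after the first motifs had been read). Of 35116 human promoter windows of that length, 10.9% hold the first, 12.7% the second and 6.57% the third. CHAC1 (ENSG00000128965.13) has a C/EBP-ATF match on the plus strand from base -209 to base -202, in chr15:40953221-40953470, plus strand, shown 5′ to 3′ with the match in capitals.
CHAC1: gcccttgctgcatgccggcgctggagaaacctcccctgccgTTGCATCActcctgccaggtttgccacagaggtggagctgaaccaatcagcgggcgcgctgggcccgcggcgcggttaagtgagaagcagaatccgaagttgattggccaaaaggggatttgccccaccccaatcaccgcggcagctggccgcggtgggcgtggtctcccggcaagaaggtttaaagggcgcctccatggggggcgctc
GCLM (ENSG00000023909.10) has an antioxidant response element match on the strand opposite to the gene from base -34 to base -26, in chr1:93909431-93909550, minus strand, with the match in capitals as it reads on the gene's strand.
GCLM: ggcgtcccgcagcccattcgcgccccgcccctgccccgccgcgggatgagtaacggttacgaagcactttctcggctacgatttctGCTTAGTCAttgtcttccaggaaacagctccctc
GSTP1 (ENSG00000084207.18) has the same element on the gene's strand from base -66 to base -58, in chr11:67583692-67583811, plus strand. Its first letters also match the AP-1 element, from base -66 to base -60.
GSTP1: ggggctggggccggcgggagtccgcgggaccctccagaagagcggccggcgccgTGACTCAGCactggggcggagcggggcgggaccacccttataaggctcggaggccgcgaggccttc
The windows of GCLC, CHAC2, GLRX and GLRX2 held none of these letters, which says nothing of sites outside them. A match describes the sequence and was not tested as a site.

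Of the 10 members, 6 were higher in peroxide libraries than in controls and 0 were lower (edgeR's quasi-likelihood test with batch as a term, Benjamini-Hochberg adjusted p under 0.05 over 14092 genes). Over all genes tested 48.3% were called, 24.1% higher and 24.3% lower. The members' median log2 fold change was 0.15, and that of all genes was -0.01. GCLC, GCLM, GSS, GSR, SLC7A11 and CHAC1 rose, while CHAC2, GLRX, GLRX2 and GSTP1 did not pass. In batch 1 alone 3 members were called higher and 0 lower, beside 20.4% and 17.2% of all genes. In batch 2 alone 6 were called higher and 0 lower, beside 19.4% and 19.1% of all genes. These 6 included GSTP1 and not CHAC1. GCLC and SLC7A11 were called in both batches. All 10 passed the filter on low counts, and the lowest level of any member in any library was 5.44 CPM, so none passed through 1 group only.

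**Figure D1:**
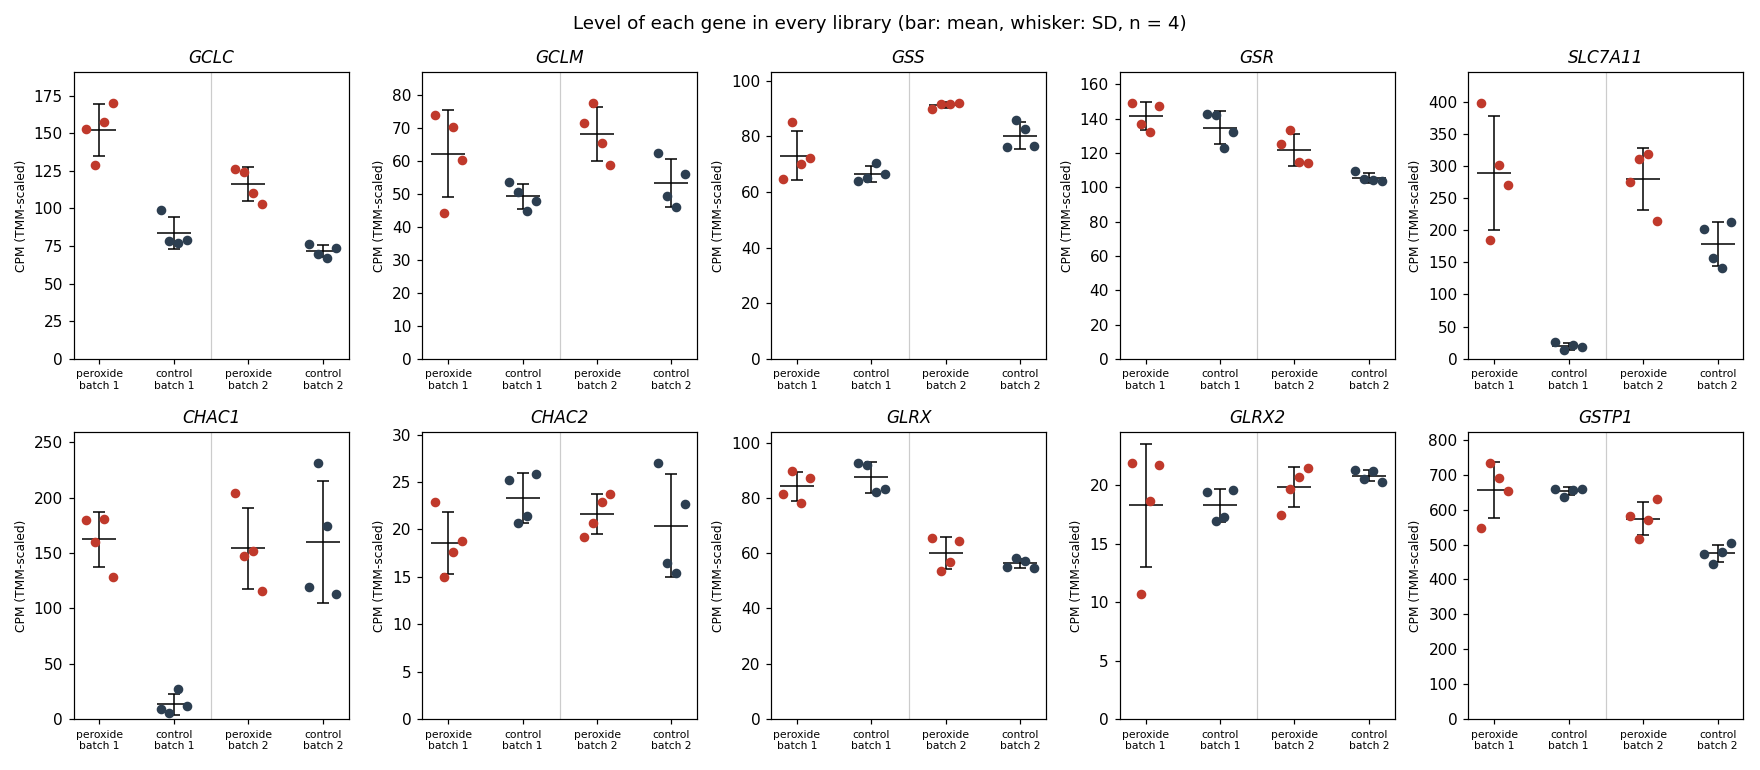
Level of each of the 10 genes in CPM (TMM-scaled, axis from 0) in every library, split by batch, with peroxide libraries in red, controls in dark blue, the bar at the mean and the whisker at 1 SD (n = 4). GCLC in peroxide libraries lies above the controls in both batches, and CHAC1 and SLC7A11 controls hold 5.44 to 26.8 and 12.9 to 25.6 CPM in batch 1 and 113 to 232 and 142 to 213 CPM in batch 2.

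Transcripts of both subunits of glutamate-cysteine ligase were higher in peroxide libraries, that of the catalytic subunit by more. GCLC (ENSG00000001084.13, chromosome 6) held 153, 129, 157 and 170.4 CPM in the peroxide libraries of batch 1, against 99.2, 78.2, 76.9 and 79.3 CPM in the controls of that batch. In batch 2 it held 126, 124, 110.1 and 103 CPM in peroxide libraries, against 76.6, 69.4, 67.0 and 73.7 CPM in controls. Every peroxide library lay above every control of either batch, a separation in that direction found in 6.76% of all genes. The log2 fold change was 0.78 ± 0.07 (SE; adjusted p = 1.26e-08, edgeR), which is 1.72-fold. It was 0.86 ± 0.11 in batch 1 alone and 0.70 ± 0.08 in batch 2 alone (edgeR, adjusted p = 1.80e-05 and 1.48e-05). The difference between those 2 values did not pass (-0.17 ± 0.14, adjusted p = 0.515, edgeR interaction term). GCLC was lower in batch 2 than in batch 1 within peroxide libraries (-0.36 ± 0.10, adjusted p = 0.0170, edgeR) and within controls (-0.23 ± 0.09, adjusted p = 0.0395, edgeR).

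GCLM, which lowers the enzyme's sensitivity to feedback by glutathione, rose less. It held 74.0, 44.4, 70.3 and 60.4 CPM in the peroxide libraries of batch 1, against 53.7, 50.7, 44.9 and 47.8 CPM in the controls of that batch. In batch 2 the values were 71.6, 77.7, 65.4 and 58.7 CPM in peroxide libraries and 62.3, 49.4, 46.0 and 55.9 CPM in controls. The groups overlapped: 5 peroxide libraries lay above all controls, and peroxide 2, at 44.4 CPM, lay below all of them. The log2 fold change was 0.35 ± 0.09 (SE; adjusted p = 0.00322, edgeR). It was 0.37 ± 0.11 in batch 2 alone (adjusted p = 0.0138, edgeR) and 0.34 ± 0.13 in batch 1 alone, where it did not pass (adjusted p = 0.0617, edgeR).

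The balance of the 2 subunit transcripts moved toward GCLC. The log2 ratio of GCLC to GCLM counts, which does not depend on library size, averaged 1.04 ± 0.33 in peroxide libraries and 0.59 ± 0.20 in controls (SD, n = 8 each). Peroxide libraries spanned 0.68 to 1.54 and controls 0.30 to 0.89, so the groups overlapped when the batches were pooled. The difference was 0.44 (exact permutation p = 0.00497, two-sided, over all 16 libraries without regard to batch). Within a batch the groups were apart: 1.31 ± 0.24 in peroxide libraries and 0.75 ± 0.11 in controls in batch 1, and 0.76 ± 0.06 in peroxide libraries and 0.43 ± 0.11 in controls in batch 2 (SD, n = 4 each; exact permutation p = 0.0286 for either batch, the smallest that 4 against 4 allows). The peroxide libraries of batch 2 thus had about the ratio of the controls of batch 1.

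**Figure D2:**
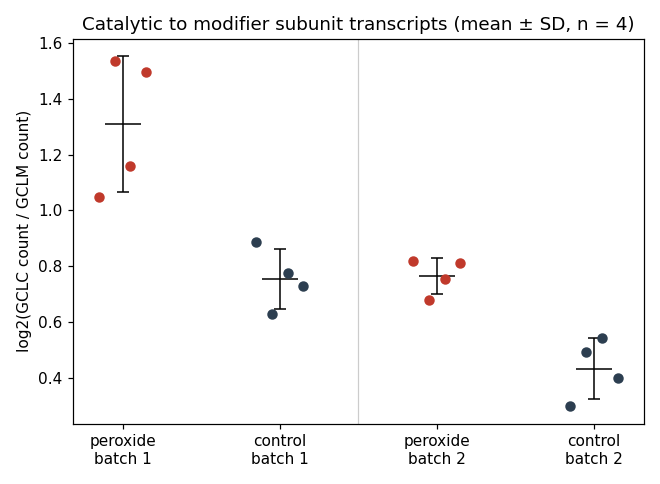
Log2 ratio of GCLC to GCLM read counts in every library by batch, with peroxide libraries in red, controls in dark blue, the bar at the mean and the whisker at 1 SD (n = 4). In each batch the 4 peroxide libraries lie above the 4 controls, with means of 1.31 and 0.75 in batch 1 and 0.76 and 0.43 in batch 2.

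GSS and GSR, which complete glutathione and return it to its reduced form, differed by little. GSS (ENSG00000100983.12, chromosome 20) had a lowest, median and highest level of 64.7, 87.6 and 92.2 CPM in peroxide libraries and 63.8, 73.4 and 85.8 CPM in controls. Its log2 fold change was 0.16 ± 0.06 (SE; adjusted p = 0.0242, edgeR). The groups overlapped, but in batch 2 all 4 peroxide libraries, at 89.9 to 92.2 CPM, were above the controls of that batch, at 76.2 to 85.8 CPM. GSR (ENSG00000104687.14) had a lowest, median and highest level of 114, 133 and 149 CPM in peroxide libraries and 103, 116 and 143 CPM in controls. Its log2 fold change was 0.14 ± 0.05 (SE; adjusted p = 0.0400, edgeR). The GSR groups also overlapped, but in batch 2 all peroxide libraries, at 114 to 133 CPM, were above the controls of that batch, at 103 to 109.7 CPM. The share of all genes separated in this way within a batch was not counted. In batch 2 alone both passed, at 0.19 ± 0.06 for GSS and 0.21 ± 0.07 for GSR (edgeR, adjusted p = 0.0319 and 0.0236). In batch 1 alone neither passed, at 0.13 ± 0.10 for GSS and 0.07 ± 0.08 for GSR (edgeR, adjusted p = 0.308 and 0.556). Scaled by total counts, both lost the call, and GSR also lost it in 10 of the 16 fits that left out 1 library (highest adjusted p = 0.0935, edgeR), keeping it without control 1 or 2 or peroxide 2, 3, 7 or 8. GSS lost it without control 1, 5 or 8 or peroxide 2 (edgeR, adjusted p 0.0547 to 0.0620).

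SLC7A11, the cystine-importing subunit of the exchanger, had the largest log2 fold change of the 10 over both batches and in batch 1 alone. The size of its change depended on the batch, and in batch 2 alone that of GCLC (0.70) was larger. SLC7A11 (ENSG00000151012.13, chromosome 4) held 398, 185, 302 and 270.1 CPM in the peroxide libraries of batch 1, against 25.6, 12.9, 21.3 and 18.5 CPM in the controls of that batch. In batch 2 it held 276, 310.4, 319 and 213 CPM in peroxide libraries, against 202, 156, 142 and 213 CPM in controls. Peroxide libraries were at like levels in both batches, while every control of batch 2 lay above every control of batch 1, as in 21.2% of all genes. In batch 2 peroxide 8 and control 8 both held 213 CPM, and the other 3 peroxide libraries were higher. The log2 fold change was 3.85 ± 0.22 in batch 1 alone (14.4-fold; adjusted p = 6.48e-09, edgeR) and 0.65 ± 0.14 in batch 2 alone (1.57-fold; adjusted p = 0.00223, edgeR). Over both batches it was 2.12 ± 0.41 (adjusted p = 0.000184, edgeR), between these unlike values.

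CHAC1, a glutathione-cleaving enzyme induced in the unfolded protein response, differed between the groups in batch 1 and not detectably in batch 2. It held 179.9, 160.5, 181 and 128 CPM in the peroxide libraries of batch 1, against 9.22, 5.44, 26.8 and 11.5 CPM in the controls of that batch. In batch 2 it held 204, 147, 152 and 115 CPM in peroxide libraries, against 119, 232, 174 and 113 CPM in controls. Peroxide libraries again matched between batches, and the highest level of all 16 libraries was that of control 6. The log2 fold change was 3.55 ± 0.30 in batch 1 alone (11.7-fold; adjusted p = 3.60e-07, edgeR) and -0.05 ± 0.20 in batch 2 alone (adjusted p = 0.859, edgeR). Over both batches it was 1.55 ± 0.47 (adjusted p = 0.00992, edgeR), with no peroxide library above all controls, and it lost the call without the batch term (0.86, adjusted p = 0.250, edgeR).

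The interaction of batch and treatment was called for 2 of the 10 members, both negative, beside 4.88% of all genes (1.87% positive and 3.02% negative). It was -3.19 ± 0.29 for SLC7A11 (adjusted p = 1.23e-06, edgeR) and -3.60 ± 0.41 for CHAC1 (adjusted p = 3.35e-05, edgeR), batch 2 minus batch 1 on the log2 scale. By p-value they ranked 4 and 8 of 14092 genes. None of the other 8 passed, with adjusted p-values from 0.197 for GSTP1 to 0.963 for GCLM (edgeR). In a comparison added after that was seen, batch 2 was set against batch 1 within each group. Within peroxide libraries SLC7A11 stood at -0.02 ± 0.19 and CHAC1 at -0.04 ± 0.15 (edgeR, adjusted p = 0.951 and 0.866). Within controls SLC7A11 was higher in batch 2 by 3.13 ± 0.17 and CHAC1 by 3.51 ± 0.33 on the log2 scale (edgeR, adjusted p = 1.82e-08 and 2.94e-06). Of the 10 members, 1 was higher and 2 were lower in batch 2 within peroxide libraries, where 16.6% of all genes were higher and 14.0% lower. Within controls 3 were higher and 4 lower, where 23.6% of all genes were higher and 22.5% lower. What separated the control batches was not tested.

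**Figure D3:**
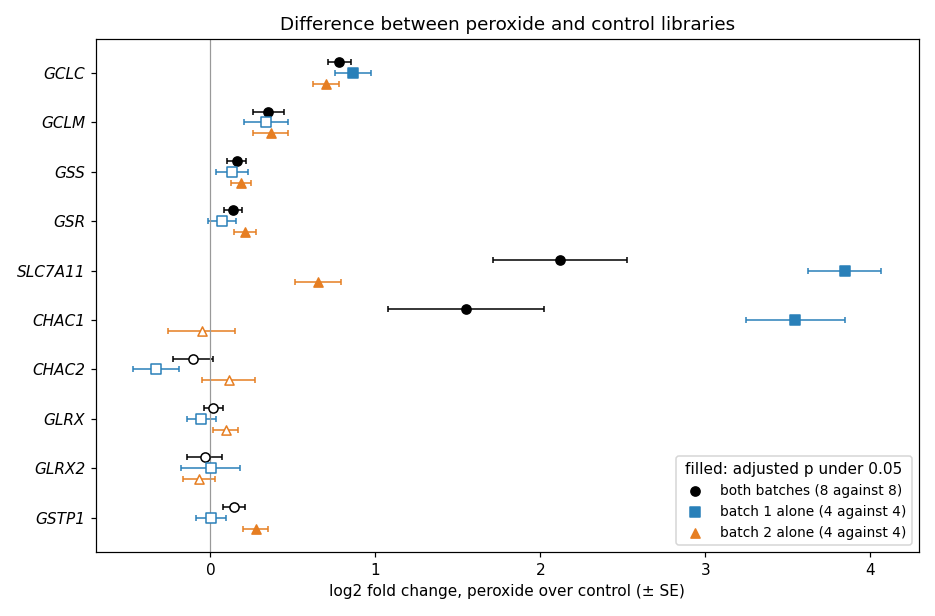
Log2 fold change of peroxide over control for the 10 genes, with whiskers of 1 SE, over both batches (black circles), in batch 1 alone (blue squares) and in batch 2 alone (orange triangles), filled where the adjusted p is under 0.05. The values of GCLC lie close together at 0.70 to 0.86, while SLC7A11 stands at 3.85 in batch 1 and 0.65 in batch 2 and CHAC1 at 3.55 and -0.05.

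Within a group and batch, CHAC1 and SLC7A11 were only weakly related, although the controls of both genes were higher in batch 2. Among the controls of batch 2, CHAC1 was higher in controls 6 and 7 (232 and 174 CPM) than in controls 5 and 8 (119 and 113 CPM). SLC7A11 was lower in controls 6 and 7 (156 and 142 CPM) than in controls 5 and 8 (202 and 213 CPM), the opposite order. Control 2 was lowest of the batch 1 controls for both genes, and peroxide 8 was lowest of the batch 2 peroxide libraries for both. Among the peroxide libraries of batch 1 the lowest differed, peroxide 4 for CHAC1 (128 CPM) and peroxide 2 for SLC7A11 (185 CPM). Over 16 libraries, the Pearson correlation of their deviations from the mean of group and batch was 0.20 (log2(CPM + 1); a description, with the library and its depth shared by both genes). The genes whose deviations were most like those of CHAC1, of 11093 compared, were the potassium channel KCNA3 (r = 0.90), ERMP1 (r = 0.83) and SNX14 (r = 0.80). For SLC7A11 they included the signalling adaptor FRS2 (r = 0.97) and ZNF207 (r = 0.95). These genes were picked as the highest of 11093 correlations over 16 libraries, so a high r alone does not show a link. Peroxide 1 and peroxide 2, highest and lowest for SLC7A11 in batch 1 peroxide libraries (398 and 185 CPM), also stood farthest from their mean over 11093 genes. The part of these libraries in the correlations was not tested.

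**Figure D4:**
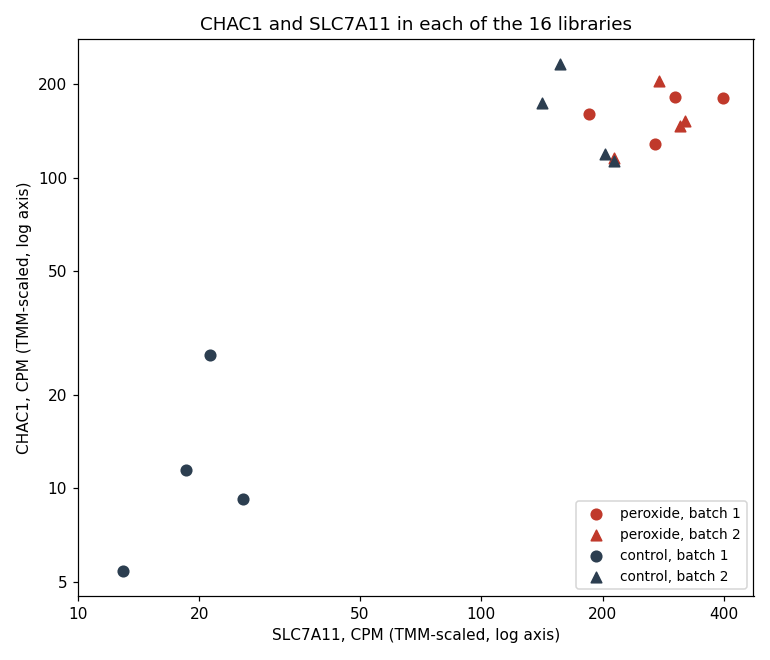
CHAC1 against SLC7A11 in CPM (TMM-scaled, log axes) in each of the 16 libraries, with peroxide libraries in red, controls in dark blue, circles for batch 1 and triangles for batch 2. The 8 peroxide libraries and the 4 controls of batch 2 lie together at over 100 CPM of either gene, and the 4 controls of batch 1 lie apart, at 26.8 CPM or less of CHAC1 and 25.6 CPM or less of SLC7A11.

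CHAC2 and both glutaredoxins gave no call in either direction. CHAC2 (ENSG00000143942.5, chromosome 2), the constitutive relative of CHAC1, had a lowest, median and highest level of 15, 19.9 and 23.7 CPM in peroxide libraries and 15.4, 22.1 and 27.0 CPM in controls. Its log2 difference was -0.11 ± 0.12 (adjusted p = 0.493, edgeR), with -0.33 ± 0.14 in batch 1 alone and 0.11 ± 0.16 in batch 2 alone (edgeR, adjusted p = 0.0747 and 0.621). In batch 1, 3 of 4 peroxide libraries lay below all controls of that batch. GLRX (ENSG00000173221.14, chromosome 5), the cytosolic glutaredoxin, followed the batch more than the treatment. It held 78.3 to 89.9 CPM in peroxide libraries and 82.3 to 92.7 CPM in controls in batch 1, and 53.5 to 65.5 CPM in peroxide libraries and 54.8 to 58.3 CPM in controls in batch 2. The log2 difference between treatments was 0.02 ± 0.06 (adjusted p = 0.829, edgeR), and batch 2 was below batch 1 within peroxide libraries (-0.46 ± 0.09) and within controls (-0.64 ± 0.07; edgeR, adjusted p = 0.00253 and 6.67e-06). GLRX2 (ENSG00000023572.9, chromosome 1), the mitochondrial glutaredoxin, stood at 10.7, 20.2 and 21.9 CPM in peroxide libraries and 16.9, 19.9 and 21.3 CPM in controls, in the order lowest, median and highest. Its log2 difference was -0.03 ± 0.11 (adjusted p = 0.813, edgeR). The lowest value was that of peroxide 2, the library that was also lowest of its group for GCLM, CHAC2 and SLC7A11.

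GSTP1 (chromosome 11), the pi-class transferase, was the most abundant member per length, and its difference passed in batch 2 alone. It held 546, 734, 692 and 652 CPM in the peroxide libraries of batch 1, against 659.8, 636, 656 and 660.1 CPM in controls. In batch 2 it held 581, 515, 569 and 631 CPM in peroxide libraries, against 473, 444, 479 and 503 CPM in controls. The groups overlapped in batch 1, and in batch 2 every peroxide library lay above every control of that batch. How many of all genes were separated in this way within a batch was not counted. The log2 difference was 0.28 ± 0.08 in batch 2 alone (adjusted p = 0.0104, edgeR), 0.00 ± 0.09 in batch 1 alone (adjusted p = 0.975, edgeR) and 0.14 ± 0.07 over both (adjusted p = 0.0892, edgeR). The test of the difference between batches did not pass (0.27 ± 0.12, adjusted p = 0.197, edgeR). Without peroxide 1 the value over both batches was called (adjusted p = 0.0155, edgeR).

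Levels of different genes are set side by side per length of exon (CPM per kilobase, over all annotated exons in GENCODE 29). That length is not the length of the transcripts present, so the order of genes with close values can depend on it. GSTP1 was highest at 322 CPM per kilobase in peroxide libraries and 295 in controls, and CHAC1 followed at 77.0 in peroxide libraries and 42.0 in controls. GSR held 35.0 CPM per kilobase in peroxide libraries and 32.0 in controls, and SLC7A11 29.5 in peroxide libraries and 10.3 in controls. The next 5 lay close together in peroxide libraries, from GCLC at 15.5 CPM per kilobase down through CHAC2, GSS and GCLM to GLRX at 11.1, and GLRX2 was lowest at 3.06. In the controls of batch 1 CHAC1 and SLC7A11 were far lower, at 6.44 and 2.03 CPM per kilobase. Per kilobase, GCLC stood above GCLM in the peroxide libraries of either batch (17.6 and 11.5 CPM per kilobase in batch 1, 13.4 and 12.6 in batch 2). In controls GCLC stood above GCLM in batch 1 (9.65 and 9.09) and below it in batch 2 (8.29 and 9.85). By counts, with no division by length, GCLC exceeded GCLM in every library, with a lowest log2 ratio of 0.30 in control 5.

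Genes that supply the amino acids of glutathione were counted from lists chosen for the pathway, with earlier results of these data known. Of 10 tested genes of cystine and cysteine supply 2 rose and 0 fell, beside 24.1% of all genes higher and 24.3% lower, so rises were no more frequent than over all genes. SLC3A2, the heavy chain that pairs with SLC7A11, averaged 771 ± 155 CPM in peroxide libraries and 445 ± 204 CPM in controls (SD, n = 8 each), a log2 fold change of 0.91 ± 0.12 (adjusted p = 1.41e-06, edgeR). SLC1A5, a glutamine carrier, rose by 0.70 ± 0.09 (adjusted p = 1.31e-06, edgeR). Like SLC7A11, both had a smaller fold change in batch 2: 1.32 in batch 1 and 0.50 in batch 2 for SLC3A2, and 1.02 and 0.39 for SLC1A5. The interaction was negative and called for 5 of these 10 genes, beside 3.02% of all genes. CTH, which makes cysteine from cystathionine, stood at 0.24 ± 0.11 and did not pass (adjusted p = 0.0914, edgeR). Without control 5 it was called higher, and 1 gene of the list was called lower. Of 11 tested genes of glutamate and glycine supply 5 rose and 1 fell, beside the same 24.1% and 24.3% of all genes. GLUL, glutamine synthetase, rose by 0.45 ± 0.06, GOT1, an aspartate transaminase, by 0.36 ± 0.07 and PSAT1, of serine synthesis, by 0.61 ± 0.12 (edgeR, adjusted p at most 0.000316). GOT1 lost its call in batch 1 alone (0.22) and PSAT1 in batch 2 alone (0.15). The count of genes that fell was 2 without peroxide 1, 2 or 7 and 0 without peroxide 3.

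Of 8 tested genes of the gamma-glutamyl cycle 2 rose and 2 fell, about the shares of all genes (24.1% higher and 24.3% lower). LAP3, an aminopeptidase, stood at 0.44 ± 0.07 and GGT1, a gamma-glutamyltransferase, at -0.53 ± 0.17 (edgeR, adjusted p = 1.70e-05 and 0.0151). GGT1 lost its call in either batch alone, at -0.51 and -0.55. Of 8 tested transporters 1 rose and 3 fell, beside the same shares. ABCC1, an exporter of glutathione and its conjugates, averaged 208 ± 20.3 CPM in peroxide libraries and 279 ± 31.4 CPM in controls (SD, n = 8 each), and all 8 peroxide libraries lay below all controls, a separation in that direction found in 4.49% of all genes. It fell by 0.42 on the log2 scale (adjusted p = 5.53e-07, edgeR). ABCC2, a related exporter at low level, rose by 0.90 ± 0.19 (adjusted p = 0.000591, edgeR), with 4.27 ± 1.33 CPM in peroxide libraries and 2.25 ± 0.78 CPM in controls (SD, n = 8 each).

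Of 10 other glutaredoxins and protein thiol enzymes 3 rose and 1 fell, shares near those of all genes (24.1% higher and 24.3% lower). TXNRD1, thioredoxin reductase, had the smallest p of these, at 0.39 ± 0.09, and PTGES2, a prostaglandin E synthase, fell by 0.28, a call lost in batch 2 alone (-0.16). Of 11 tested other transferases 3 rose, again near the 24.1% of all genes, and 0 fell. GSTM3, a mu-class transferase, rose by 0.52 ± 0.09 and GSTO2, of the omega class, by 1.25 ± 0.24. GSTO2 was scarce, at 2.42 ± 0.84 CPM in peroxide libraries and 1.01 ± 0.65 CPM in controls (SD, n = 8 each). Of 3 tested glutathione peroxidases, too few to set against that share, 2 rose, PRDX6 by 0.29 ± 0.06 and GPX4 by 0.18 ± 0.07. ESD, S-formylglutathione hydrolase, was the 1 gene of 5 in glyoxalase and formaldehyde removal that rose, by 0.16 ± 0.05, and 0 fell. Adjusted p-values of these genes were at most 0.0249 (edgeR). PRDX6 (0.19), GPX4 (0.04) and ESD (0.13) lost their calls in batch 1 alone, and GPX4 also without control 1, 5, 6 or 8 or peroxide 2 or 8 (highest adjusted p = 0.0630, edgeR). Without peroxide 1, 5 of the other transferases were called higher and 1 lower.

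Of 9 tested genes that supply NADPH, which GSR consumes, 2 rose and 2 fell, about the shares of all genes (24.1% higher and 24.3% lower). IDH1, the cytosolic NADP-dependent isocitrate dehydrogenase, fell by 0.55 and NNT, the mitochondrial transhydrogenase, by 0.36, while TKT and PGD of the pentose phosphate route rose by 0.27 ± 0.07 and 0.21 ± 0.09 (edgeR, adjusted p at most 0.0468). PGD lost its call in 10 of the 16 fits that left out 1 library (highest adjusted p = 0.115, edgeR), and TKT (0.13) and PGD (0.07) lost theirs in batch 1 alone. Of 9 NRF2 pathway regulators 3 rose and 1 fell, beside the same shares. MAFF, a small MAF partner of NRF2, averaged 25.4 ± 4.31 CPM in peroxide libraries and 5.25 ± 1.51 CPM in controls (SD, n = 8 each), with all peroxide libraries above all controls. Its log2 fold change was 2.26 ± 0.14 (adjusted p = 2.89e-11, edgeR). NFE2L2, the gene of NRF2, rose by 0.56 ± 0.08, KEAP1, which marks NRF2 for degradation, by 0.29 ± 0.07, and NFE2L1, a relative of NRF2, fell by 0.52 (edgeR, adjusted p at most 0.00257). KEAP1 lost its call in batch 1 alone (0.12), and 2 of these genes fell without peroxide 5.

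Many genes of the ATF4 pathway also had smaller fold changes in batch 2. The list of this pathway was chosen with earlier results of these data known, so its counts describe the genes picked and are no independent test. Of 14 tested regulators and targets 12 rose and 1 fell, beside 24.1% of all genes higher and 24.3% lower. Their median log2 fold change was 1.04, against -0.01 for all genes. The median was 1.52 in batch 1 alone and 0.59 in batch 2 alone, and the interaction was negative and called for 8 of the 14, beside 3.02% of all genes. DDIT3, the gene of CHOP, stood at a log2 fold change of 5.52 in batch 1 and 2.84 in batch 2, ATF3, a stress-induced transcription factor, at 4.67 and 2.00, and PPP1R15A, a phosphatase subunit that reverses the block on translation, at 3.94 and 2.57. Within controls 9 of the 14 were higher in batch 2 and 2 lower, beside 23.6% and 22.5% of all genes, with a median log2 difference of 1.62. ATF4 itself differed from this: its control levels averaged 495 CPM in batch 1 and 504 CPM in batch 2, and the interaction of its fold changes, 1.33 in batch 1 and 1.01 in batch 2, did not pass (-0.32 ± 0.12, adjusted p = 0.106, edgeR). SESN2 and ASNS, chosen after their values were seen, were higher in the controls of batch 2 than in those of batch 1. Their log2 differences were 3.13 ± 0.08 and 2.90 ± 0.25, close to SLC7A11 (3.13 ± 0.17). ASNS was scarce, averaging 0.79 CPM in the controls of batch 1 and 6.47 CPM in those of batch 2.

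**Figure D5:**
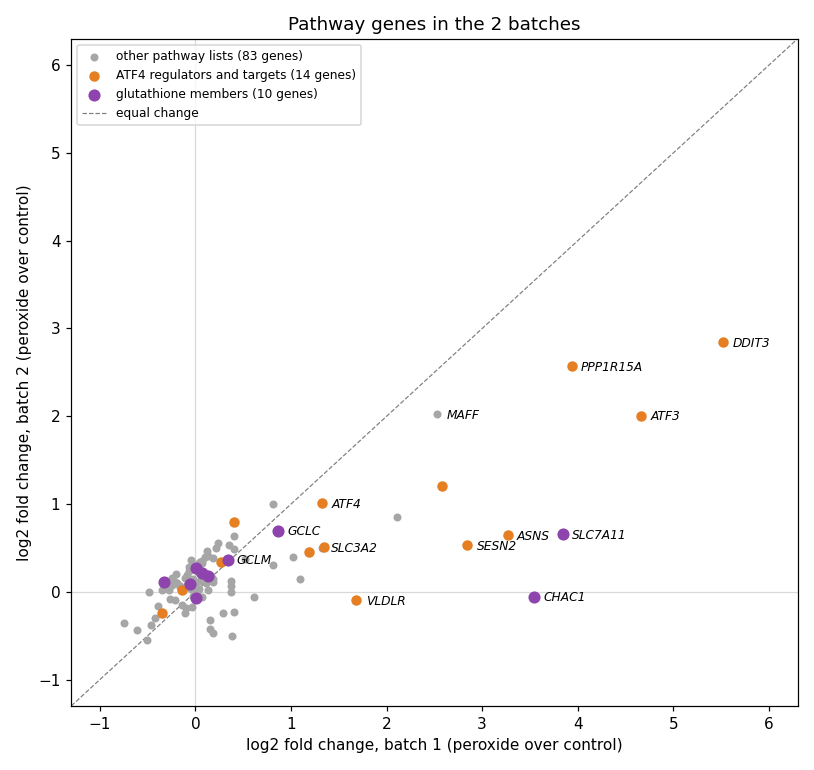
Log2 fold change of peroxide over control in batch 2 against that in batch 1 for the 10 members (purple), 14 genes of the ATF4 pathway (orange) and 83 genes of the other lists (grey), with the line of equal change dashed. GCLC (0.86 in batch 1 and 0.70 in batch 2) lies near the line, and SLC7A11 (3.85 and 0.65), CHAC1 (3.55 and -0.05) and DDIT3 (5.52 and 2.84) lie well under it.

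Reads of some members cannot be fully assigned. Exons of SLC7A11 share 865 bases with SLC7A11-AS1 on the opposite strand, those of GLRX2 share 481 bases with TROVE2 on the opposite strand, and those of GCLC share 529 bases with a long non-coding RNA on the same strand. These are 8.97%, 7.75% and up to 6.20% of their exon length in GENCODE 29, and no source used here says whether counting used strand. The processed copies of GLRX held 0 reads over all libraries and that of GSTP1 held 9.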

How the data were processed

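Each library has 1 deposited table of raw read counts per gene, whole numbers with no normalization by the authors. The submitters' processing notes name STAR 2.7.1a, HTSeq 0.6.1 and hg19. Of the identifiers, 68.0% match GENCODE 29 (GRCh38) to the version, so the build was treated as unclear. No source used here gives the counting mode or strand setting. The 5 rows of each table that name no gene held 43.5% to 57.6% of counts and were left out of library sizes and tests. Of 60662 identifiers, 60402 had a symbol.

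In R 4.3.3, genes were kept with filterByExpr by group (14092 genes, 99.6% of reads in genes), scaled with TMM and tested with edgeR 4.0.16 (quasi-likelihood, batch and group as terms; batch by group for the interaction), Benjamini-Hochberg adjusted over all genes tested. A call is an adjusted p under 0.05. The SE is the log2 fold change over the square root of the F statistic. The ratio of GCLC to GCLM counts was tested with an exact permutation test, over all 16 libraries without regard to batch and within each batch. The members, the pathway lists and the comparisons were chosen with earlier results of these data known. Named are all members, up to 4 genes of each list with the smallest p among those averaging at least 1 CPM, and the 3 genes most like CHAC1 and SLC7A11 in deviations, among those averaging at least 5 CPM; other names are marked, and a few genes taken by this rule are not reported here.

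Alternatives were DESeq2 1.42.0, limma-voom (limma 3.58.1), total-count and relative-log scaling, no filter, no batch term, the replicate number as a block, each batch alone, leaving out the 2 libraries with the highest share of reads not aligned uniquely, and leaving out each library. Simulated counts were drawn for 14092 genes with no batch effect, and 50 genes were changed at each size. In these the treatment test found 54.0% of 1.25-fold changes, 92.0% of 1.5-fold changes and 100% of 2-fold and 4-fold changes, with 9 of 182 calls false. For the interaction these shares were 6.00%, 50.0%, 88.0% and 100%, with 4 of 126 false. Pairs of libraries within a group differed by more than sampling noise (chi-square per degree of freedom 2.97 to 50.1), so all 16 were kept.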

Additional observations from a re-analysis of the deposited data

Results flagged for a closer look

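For 59 genes and the ratio of GCLC to GCLM, 120 groups of 8 libraries were examined for a library far from the rest of its group. That happens by chance in about 1 of 20 groups whose libraries share 1 common spread. The groups here join 2 batches, so this rate need not hold where the batches differ, and a library far from its own batch can be missed. Such a library was found for GCLC in control 1, at 99.2 CPM, and for GLRX2 in peroxide 2, at 10.7 CPM. GCLC in control 1 still lay below every peroxide library.

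The fold change of peroxide over control differed between batches, by the edgeR interaction term, for 11 of the genes examined. Values are batch 2 minus batch 1 on the log2 scale. Both members among them were negative, SLC7A11 at -3.19 and CHAC1 at -3.60. In the supply of cystine and related amino acids SLC3A2 stood at -0.83, SLC1A5 at -0.63, CTH at -0.68 and PSAT1 at -0.94. Among regulators NFE2L2 stood at -0.50, DDIT3 at -2.69, ATF3 at -2.67 and PPP1R15A at -1.37. The mitochondrial carrier SLC25A11 was the 1 gene of these with a positive value, 0.48.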

How the results depend on the processing

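GCLC kept its call under every alternative run. The cause of each change given here was not tested. GSS lost its call with total counts (0.10), no filter (0.11), no batch term (0.16), batch 1 alone (0.13) and without control 1 and peroxide 5, which had the highest shares of reads not aligned uniquely (0.15). GSR lost it at the same settings (0.079, 0.087, 0.13, 0.068 and 0.14). GCLM lost it in batch 1 alone (0.34), CHAC1 without a batch term (0.86), and CHAC1 turned to -0.054 in batch 2 alone. GSTP1 gained a call in batch 2 alone (0.28). Among members without a call, the sign changed for CHAC2 in batch 2 (0.11), for GLRX with total counts (-0.043), no filter (-0.035) and in batch 1 (-0.056), and for GLRX2 in batch 1 (0.00063) and without control 1 and peroxide 5 (0.0060), where the interaction of GCLM was -0.045. In batch 2 alone the sign also changed for CTH (-0.063), SLC25A11 (0.0027), ADH5 (0.071), SNX14 (-0.022) and ZNF207 (-0.0017), and in batch 1 alone for GPX1 (-0.068) and HAGHL (-0.024). Members called higher numbered 3 without a batch term and 3 in batch 1 alone, against 6. All genes called higher numbered 5150 with no filter, against 3391. Genes of the pathway lists called higher numbered 20 without a batch term, against 36, and those called lower 18 with total counts, against 11.

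Leaving out 1 library at a time gave 0.12 to 0.18 for GSS, 0.11 to 0.16 for GSR, -0.0077 to 0.037 for GLRX, -0.085 to 0.040 for GLRX2 and 0.11 to 0.18 for GSTP1. The interaction ranged from -0.10 to 0.15 for GCLM and from -0.25 to 0.053 for GLRX2, and members called higher from 4 to 6. With the replicate number as a block GSR lost its call (0.14, adjusted p = 0.0502, edgeR) and no other member changed its call. Libraries of the same number had correlated deviations of -0.22 to 0.32, and 3 of 8 numbers correlated best with their own, so the numbers were not taken to pair the libraries. A 1.25-fold change, larger than that of GSS or GSR, was found in 54.0% of simulated cases, which were drawn with no batch effect. That share was not worked out for GSS or GSR themselves. The part of depth and of the number of libraries in the lost calls of GSS and GSR was not tested. Without a batch term TXNRD1, SLC1A5, PSAT1, TKT and SLC25A11 also lost their calls.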
